A study of Mus musculus with 4 samples.

Results

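Genes at the distal end of mouse chromosome 11 were followed across 4 RNA-seq libraries of mammary tumour cells. A gene was taken when the GENCODE M21 annotation on the GRCm38 build places its start at or beyond position 110000001 of chromosome 11 and its mean over the 4 libraries was at least 5 FPKM (sequenced fragments per kilobase of transcript, relative to library size). This rule gave 143 genes of the 50679 in the deposited table, of which 136 are protein coding. On the same stretch of chromosome the table lists 356 genes, and 91 of them are at 0 in all 4 libraries. The genes were picked out because their levels shift together between libraries, so those shifts are given as a description and without a test.

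The cells came from mammary tumours of mice 10 weeks old and carry PyMT, the middle T oncogene of polyomavirus, in both groups; it induces such tumours. Of the libraries, 2 were labelled PCNA WT (WT 1 and WT 2) and 2 were labelled PCNA 211F (211F 1 and 211F 2), an altered form of PCNA, the sliding clamp of DNA replication. Tumours were dissociated, epithelial cells were captured with an antibody to EpCAM and the cells were then grown in serum-containing medium from a plating density of 100000, so the RNA is that of cells after culture. The libraries of a genotype are described as independent repeats; the sources used here do not say whether they came from separate animals or which promoter drives PyMT. The p-values below therefore take the spread from these libraries only. The values are RNA levels, and no DNA or protein measurement was used here.

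The distal end of mouse chromosome 11 is gene-dense, and its genes belong to many unrelated pathways. Housekeeping genes of splicing, translation and mitochondria lie beside genes of epithelial adhesion and lipid synthesis. Several are well known in mammary epithelium: Fasn makes the fatty acids that go into milk fat, Sox9 is a transcription factor of luminal progenitors, and Itgb4 forms the hemidesmosomes that anchor basal cells.

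The libraries differ in cell state as well as in genotype. Epcam (chromosome 17, 87635979 to 87651129), the antigen of the capture, was at 444 (WT 1), 0.893 (WT 2), 77.3 (211F 1) and 450 FPKM (211F 2), so the epithelial label is borne out by this marker in 3 libraries and not in WT 2. The tumours are also labelled luminal, while Krt14, a basal keratin, was at 1058, 2.41, 1297 and 1722 FPKM in that order. The summed level of 8 epithelial markers was 2734, 5.76, 2256 and 3426 FPKM for these libraries, and that of 8 mesenchymal and fibroblast markers was 335, 4261, 4438 and 41.3 FPKM. Single markers did not all follow these sums. In 211F 1 Krt14 and Krt8 (505 FPKM) made up most of the epithelial sum, while Cldn7 was at 5.07 FPKM there against 85.1 in 211F 2, and Esrp1 at 17.4 against 102. The mesenchymal sums of WT 2 and 211F 1 were similar, yet Col1a1 stood at 437 (WT 2) and 2.70 FPKM (211F 1), and Col1a2 at 416 and 0.286 FPKM. For 4 smooth muscle markers the sums were 0.763, 108, 615 and 0.626 FPKM, and for 3 proliferation markers 530, 503, 397 and 416 FPKM. Leukocyte, endothelial and adipocyte lists summed to at most 3.85, 1.87 and 2.28 FPKM, with Adipoq at 0 in all libraries. Pcna itself (chromosome 2, 132249162 to 132253314) was at 155, 147, 173 and 119 FPKM, a level that does not check the labels because the allele alters the protein. Sums of all values were 544399 to 564977 FPKM, and 3 fragments in 1 kb correspond to 0.0497 (WT 2) to 0.0911 FPKM (211F 2).

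The level of the distal genes went up and down together, and 211F 2 was the high library. The median over the 143 genes was 50.5 (WT 1), 29.5 (WT 2), 21.6 (211F 1) and 76.6 FPKM (211F 2). From here on, a difference is on the log2(FPKM + 1) scale, which understates changes of low genes, and is relative to the median difference of all 12767 genes whose mean reached 1 FPKM. Of the 6 pairs of libraries, 211F 2 against 211F 1 had the largest median, 1.80, which is 3.47-fold, with 125 genes higher and 18 lower in 211F 2. This pair is called the shared shift below. The median was 1.55 for 211F 2 over WT 2, 1.08 for WT 1 over 211F 1, 0.82 for WT 1 over WT 2, 0.75 for 211F 2 over WT 1 and 0.23 for WT 2 over 211F 1. The order of the medians was thus 211F 2, WT 1, WT 2 and 211F 1, and the highest and the lowest were both labelled 211F. The interquartile range of the shared shift was 0.98 among the distal genes against 0.79 among all tested genes.

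A gene was said to follow the shared shift when it was higher in 211F 2 than in 211F 1 by at least 0.90, a 1.86-fold difference set at 0.5 of the median. By this measure 115 of the 143 genes followed, or 80.4%, against 9.44% of all tested genes. A further 10 were higher in 211F 2 by less, and 18 (12.6%) were lower in 211F 2, where 50% is fixed for all tested genes by the centring on the median. In 102 genes, 71.3% of the 143, 211F 2 was the highest library and WT 1 the next, against 12.6% of all tested genes. All 7 of the genes that are not protein coding followed, beside 80.4% of the 143. Exons of most of the 7 overlap another gene, so their reads may be shared. These counts describe the values that led to the choice of the region. All tested genes include those with a mean of 1 to 5 FPKM, which the 143 do not, so these shares are compared at unlike levels. The scale understates the changes of such genes, which bears on the 9.44% and on the interquartile range above. The epithelial sum was 3426 FPKM in 211F 2 and 2256 in 211F 1, the mesenchymal sum 41.3 against 4438 and the smooth muscle sum 0.626 against 615; the part of these cell states in the shift was not tested. In bulk RNA, fewer cells of a type and less RNA per cell cannot be told apart.

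**Figure D1:**
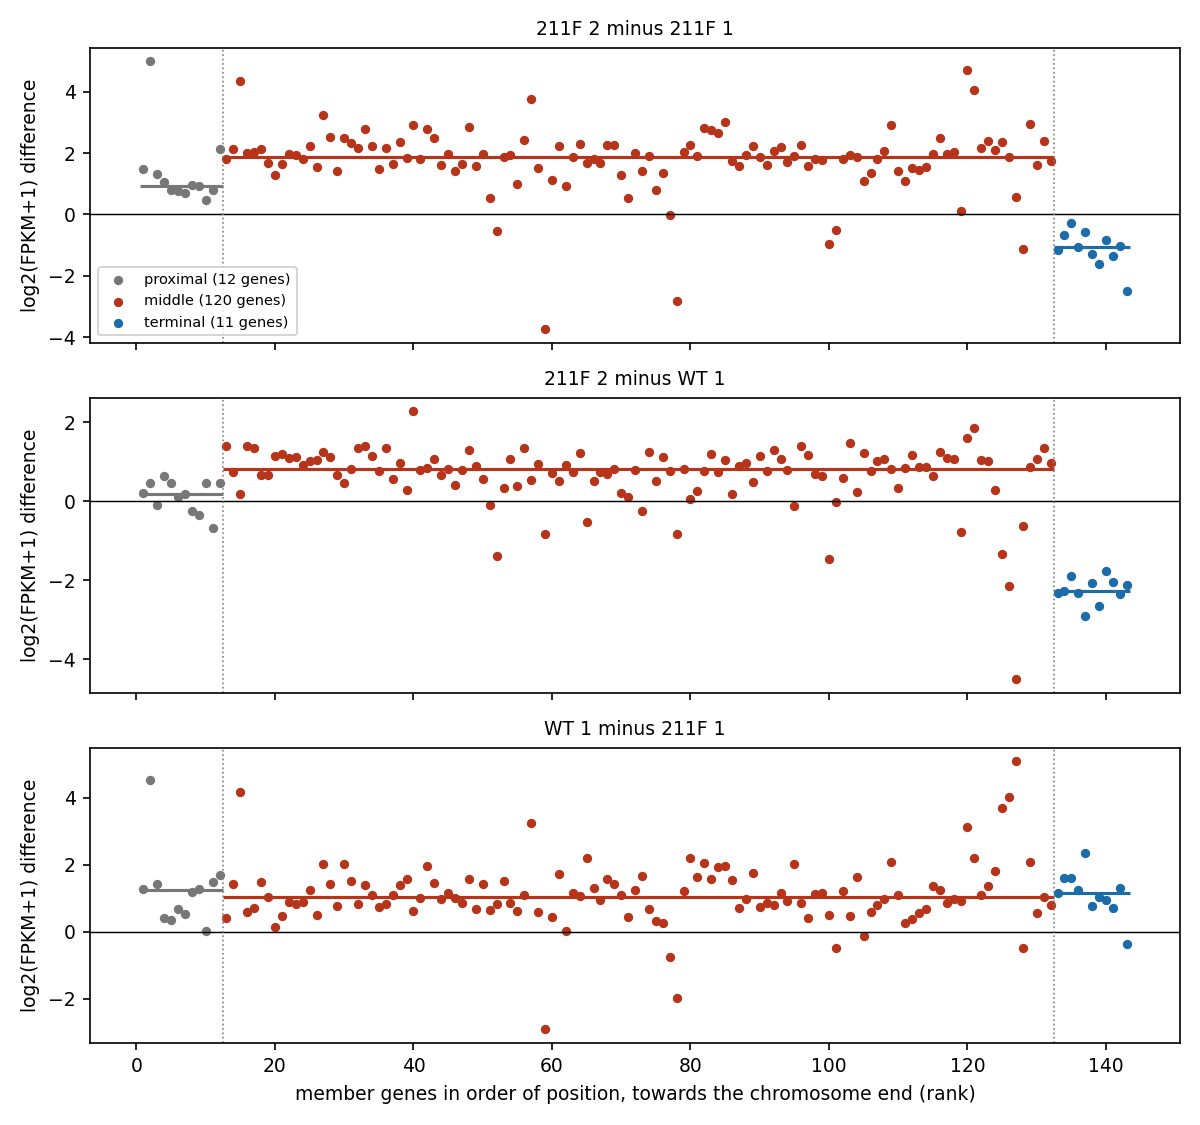
Differences in log2(FPKM+1), relative to the median of tested genes, for the 143 genes in order of position, in 3 pairs of libraries (1 point a gene, coloured lines at the median of each stretch, dotted lines between stretches). The last 11 genes lie below 0 in the upper and middle panels and near the level of the other genes in the lower panel.

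The genes that did not follow were not spread evenly along the chromosome. In order of position, the difference of 211F 2 over WT 1 falls into 3 stretches, placed where 2 change points gave the smallest summed absolute deviation. The first holds 12 genes from Map2k6 to Nat9, the second 120 genes from Tmem104 (start 115187487) to Fasn, and the last 11 genes from Csnk1d (start 120961749) to Metrnl at the chromosome end. They are called the proximal, middle and terminal stretch. The stretches were drawn on these values after they had been seen, so the differences between them are a description.

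In the middle stretch 108 of 120 genes followed, with a median of 1.89, a 3.70-fold difference of 211F 2 over 211F 1. Its median level was 51.7 (WT 1), 31.3 (WT 2), 21.1 (211F 1) and 84.0 FPKM (211F 2). It was higher in 211F 2 than in WT 1 as well, by a median of 0.81, with 106 genes higher and 14 lower. In 95 of the 120, 211F 2 was highest and WT 1 next.

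In the proximal stretch 7 of 12 genes followed and 5 were higher in 211F 2 by less than 0.90. The median was 0.94 for 211F 2 over 211F 1, 1.24 for WT 1 over 211F 1 and 0.19 for 211F 2 over WT 1, so that 211F 2 and WT 1 stood at about the same level. Median levels were 46.1 (WT 1), 21.6 (WT 2), 19.8 (211F 1) and 46.1 FPKM (211F 2).

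The terminal stretch went the other way in 211F 2. All 11 genes were lower in 211F 2 than in WT 1, by a median of -2.27 with a range from -2.90 for Narf to -1.77 for Fn3krp, a ratio of 0.207 on the FPKM + 1 scale. All 11 were also lower in 211F 2 than in 211F 1, with a median of -1.08. The median for WT 1 over 211F 1 was 1.17, close to the 1.04 of the middle stretch. Median levels were 50.9 (WT 1), 17.4 (WT 2), 21.6 (211F 1) and 6.22 FPKM (211F 2). In 9 of the 11 genes WT 1 was the highest library and 211F 2 the lowest; these were the only 9 such genes among the 143 (6.29%), against 3.56% of all tested genes. Between 211F 2 and WT 1 the epithelial sums were 3426 and 2734 FPKM, the mesenchymal sums 41.3 and 335 and the smooth muscle sums 0.626 and 0.763, and their part in the difference was not tested.

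**Figure D2:**
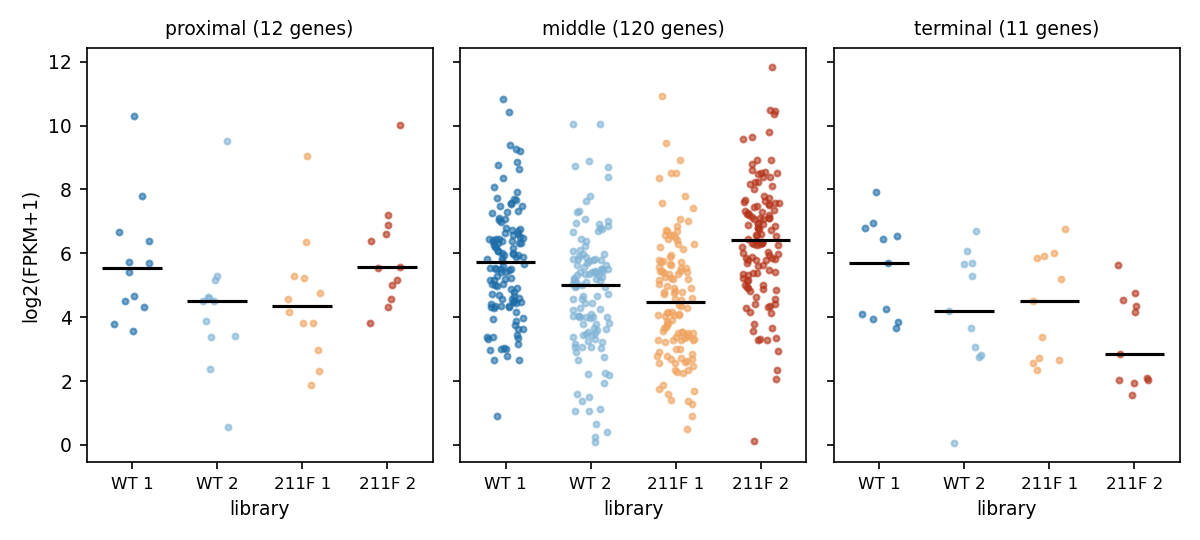
Level of each gene as log2(FPKM+1) in the 4 libraries, for the 12 proximal, 120 middle and 11 terminal genes (1 point a gene, spread sideways for legibility, black bar at the median). 211F 2 has the highest median in the middle stretch and the lowest in the terminal stretch.

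The step lies between Fasn and Csnk1d. Fasn (chromosome 11, 120805846 to 120824547, minus strand), which encodes fatty acid synthase, was at 178 (WT 1), 49.2 (WT 2), 104 (211F 1) and 363 FPKM (211F 2). Csnk1d (120961749 to 120991330, minus strand), a casein kinase of the circadian clock and Wnt pathways, was at 239.9 (WT 1), 103 (WT 2), 108 (211F 1) and 48.8 FPKM (211F 2). In Fasn 211F 2 was the highest library, 0.97 above WT 1 on the log2 scale, and in Csnk1d it was the lowest, -2.33 from WT 1. Ccdc57, which starts 1982 bp after the end of Fasn and was not taken because its mean was 2.91 FPKM, was at 5.95 (WT 1), 2.82 (WT 2), 1.94 (211F 1) and 0.928 FPKM (211F 2). It was lowest in 211F 2, as Csnk1d was. Shortly before Fasn, Rac3, Dcxr, Cbr2 and Hmga1b were already lower in 211F 2 than in WT 1 (-1.34, -2.14, -4.51 and -0.62). Rfng, Gps1 and Dus1l, between them and Fasn, were higher (0.87, 1.06 and 1.35).

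Genes with a mean of 1 to 5 FPKM were too low for the rule. It left them out by their mean over the same 4 libraries, so they are no independent check. Beyond Fasn there are 5 such genes: Ccdc57 and Slc16a3 start between Fasn and Csnk1d, and Gm28192, Sectm1b and B3gntl1 start within the terminal stretch. All 5 were lower in 211F 2 than in WT 1 (median -1.47) and than in 211F 1 (median -0.65). B3gntl1, the highest of them, was at 5.42 (WT 1), 4.49 (WT 2), 4.32 (211F 1) and 1.41 FPKM (211F 2). In the middle stretch 9 of 12 such genes were higher in 211F 2 than in 211F 1 (median 1.19), and 7 of 12 were higher in 211F 2 than in WT 1 (median 0.11). Among 5 in the proximal stretch 3 were higher in 211F 2 than in 211F 1 (median 0.18) and 1 was higher in 211F 2 than in WT 1. Gm28192 starts within Csnk1d and B3gntl1 within Tbcd, so their reads may be shared with those genes. Slc16a3 was at 0.739 in WT 1 and 0.101 FPKM in 211F 2, where 3 fragments in 1 kb correspond to 0.0911 FPKM. Sectm1b was at 9.15 FPKM in WT 1 and at most 0.432 FPKM in the other libraries, so it reached a mean of 1 FPKM through WT 1. In the middle stretch Galr2 was at 2.84 FPKM in 211F 2 and at most 0.997 FPKM in the others, so it did so through 211F 2. With these limits, the lower genes beyond Fasn were lowest in 211F 2. This is a description and gives no separate support for the step. For the lower genes of the middle stretch the rise of 211F 2 over WT 1 was small.

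**Figure D3:**
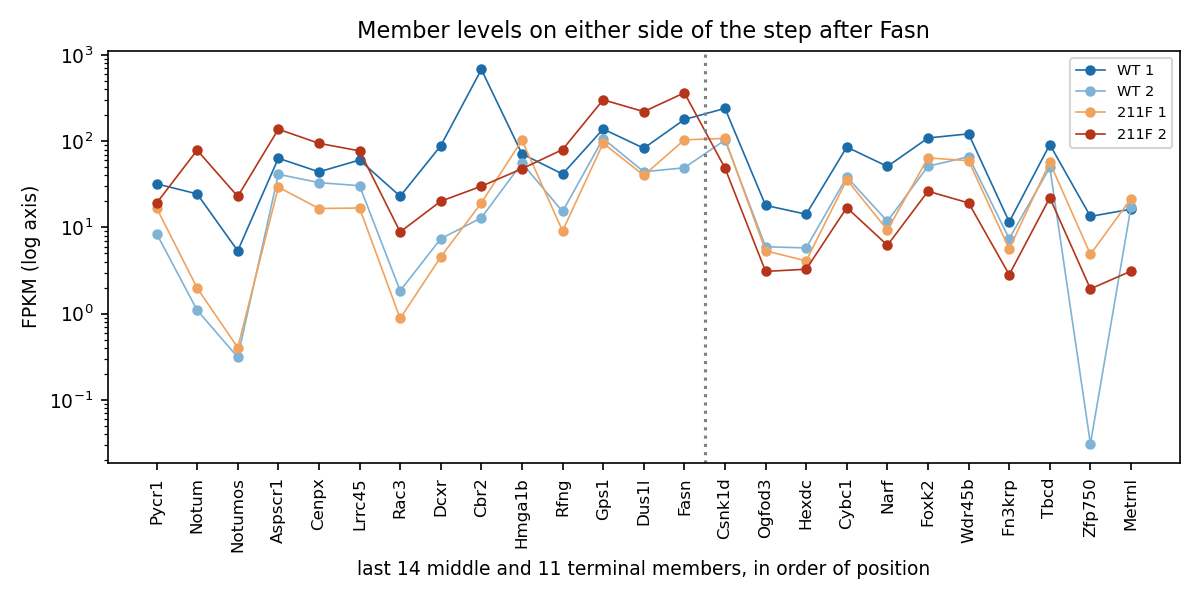
FPKM on a log axis in the 4 libraries for the last 14 genes of the middle stretch and the 11 of the terminal stretch, in order of position (dotted line between Fasn and Csnk1d). 211F 2 is the highest library at Gps1, Dus1l and Fasn and the lowest at 10 of the 11 terminal genes, the exception being Zfp750, which was lower in WT 2.

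The step after Fasn was found from each pair with 211F 2. With change points drawn on 211F 2 over 211F 1 the stretches held 11, 121 and 11 genes, and on 211F 2 over WT 2 they held 10, 122 and 11, in both cases ending the middle stretch at Fasn. On WT 1 over 211F 1, a pair without 211F 2, neither change point fell at Fasn, and they set apart 5 genes from Cenpx to Cbr2. The fit always places 2 change points, and 5 genes is the smallest stretch it allowed here. It therefore cannot show that this pair has no step elsewhere. The proximal border moved by 1 or 2 genes between Ttyh2 and Tmem104.

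For comparison with the rest of the genome, medians were taken over runs of 20 neighbouring genes whose mean reached 5 FPKM. For 211F 2 over 211F 1 the highest run inside the region, from Gga3 to Mrpl38, had a median of 2.23, and the highest of 9363 runs outside it had 0.71, on chromosome 12. For 211F 2 over WT 1 the lowest run, from Lrrc45 to Metrnl, had a median of -2.06, and the lowest outside had -0.93, from Acbd4 to Strada on chromosome 11. For WT 1 over 211F 1 the gap was small: 1.49 inside against 1.30 outside, the latter from B4galnt4 to Cd151 on chromosome 7. For the other pairs, and in the other direction, runs outside were more extreme than those inside in several cases. The lowest run of 211F 2 over 211F 1 had -0.62 inside and -0.995 outside, on chromosome 16. The lowest of 211F 2 over WT 2 had -0.47 inside and -1.32 outside, on chromosome 15, and the highest of WT 2 over 211F 1 had 0.47 inside and 0.99 outside, on chromosome 5. Runs overlap and are a description with no test. Along chromosome 11 itself, the median for 211F 2 over 211F 1 was taken in bins of 5 Mb. The 21 bins that end at least 5 Mb before the region had a median of -0.32, and the bin next to the region had 0.20. The 3 bins inside it had 0.94, 1.92 and 1.62.

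**Figure D4:**
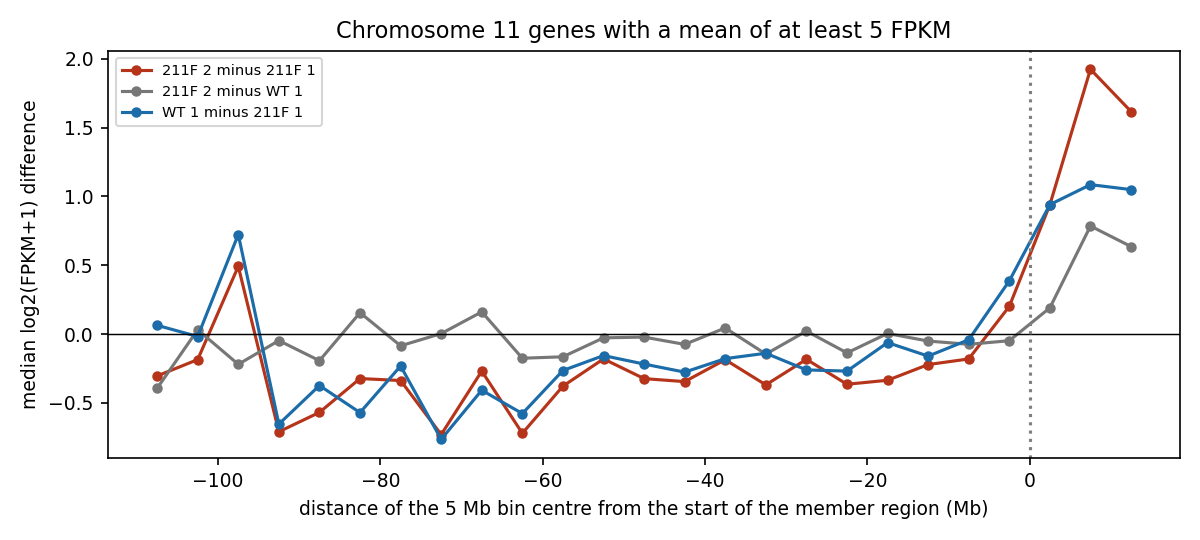
Median difference in log2(FPKM+1) of the genes of chromosome 11 whose mean reached 5 FPKM, in bins of 5 Mb, by distance from the start of the region, for 3 pairs of libraries. The red line (211F 2 over 211F 1) leaves the range of -0.73 to 0.49, seen in the 21 bins that end at least 5 Mb before the region, once it enters the region.

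Genes at the edges of the rule had these values. Prkar1a, Wipi1 and Amz2, the 3 genes just before the start with enough signal, were higher in 211F 2 than in 211F 1 by 0.20, 0.43 and 0.98, and Map2k6, the first gene inside, by 1.48. Just under the level of 5 FPKM lay Abca5 at 4.82 FPKM, with a difference of 0.50, and B3gntl1 at 3.91 FPKM, with -1.18. Just over it lay Zfp750 at 5.07 FPKM, with -1.04, and Oxld1 at 5.22 FPKM, with 1.86.

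As examples of the sequences from which these genes are transcribed, the 250 bases before the start of 4 of them are given from RefSeq (GRCm38.p6, each 5′ to 3′ on the strand of its gene). H3f3b and Fasn are middle genes that followed, Foxk2 is a terminal gene and Lgals3bp is a middle gene that went against the shift. Capitals mark exact matches, on either strand, to the letters TATAAA (read by the TATA-binding protein), to CCAAT (read by the factor NF-Y) and to GGGCGG (read by Sp1). No match to CACGTG, the E-box, lay in these windows. The windows are at chr11:116024505-116024754 for H3f3b, chr11:120824548-120824797 for Fasn, chr11:121259737-121259986 for Foxk2 and chr11:118401960-118402209 for Lgals3bp, the first, second and last on the minus strand and Foxk2 on the plus strand.
H3f3b: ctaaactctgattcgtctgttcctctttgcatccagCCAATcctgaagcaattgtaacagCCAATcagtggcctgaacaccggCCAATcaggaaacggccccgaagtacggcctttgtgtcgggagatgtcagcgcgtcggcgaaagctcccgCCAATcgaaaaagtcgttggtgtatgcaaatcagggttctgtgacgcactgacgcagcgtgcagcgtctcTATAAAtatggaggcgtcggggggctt
Fasn: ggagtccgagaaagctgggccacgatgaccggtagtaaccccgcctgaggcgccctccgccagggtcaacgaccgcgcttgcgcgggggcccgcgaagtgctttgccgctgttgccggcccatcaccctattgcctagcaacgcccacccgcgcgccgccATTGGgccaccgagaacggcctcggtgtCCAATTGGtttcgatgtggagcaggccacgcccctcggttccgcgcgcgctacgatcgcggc
Foxk2: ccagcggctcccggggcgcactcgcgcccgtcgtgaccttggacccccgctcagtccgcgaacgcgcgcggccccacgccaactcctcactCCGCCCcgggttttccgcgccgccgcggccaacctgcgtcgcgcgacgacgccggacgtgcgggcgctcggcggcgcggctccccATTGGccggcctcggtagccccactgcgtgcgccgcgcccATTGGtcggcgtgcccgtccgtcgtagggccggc
Lgals3bp: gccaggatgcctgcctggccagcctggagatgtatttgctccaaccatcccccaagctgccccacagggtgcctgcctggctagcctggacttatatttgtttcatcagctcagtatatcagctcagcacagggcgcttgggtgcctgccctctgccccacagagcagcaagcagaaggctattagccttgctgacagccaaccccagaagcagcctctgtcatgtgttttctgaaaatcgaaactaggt

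The H3f3b window holds 4 CCAAT matches and 1 TATAAA match, Fasn holds 3 CCAAT matches, of which 2 overlap, and Foxk2 holds 2 CCAAT matches and 1 GGGCGG match. Lgals3bp holds none of these letters and 2 CpG pairs, against 19, 33 and 48 in the other windows in that order. Over windows of 300 bases (250 before and 50 after the start), 110 of the 143 genes had an entry. Their median GC content was 62.8%, against 52.7% over all 32851 such windows. GGGCGG was in 64.5% of them against 35.7% of all, CCAAT in 47.3% against 37.4%, CACGTG in 11.8% against 7.15% and TATAAA in 9.09% against 13.6%. The 32851 windows were not filtered by expression, as the 143 genes were, so these contrasts cannot be taken as traits of the region. Among the 87 genes that followed, GGGCGG was in 63.2% and CCAAT in 43.7%, and among the 23 that did not it was in 69.6% and 60.9%. Windows of both kinds were GC-rich, with medians of 63.3% and 62.3%. TATAAA was in 10 of the 87 and in 0 of the 23. A match is a run of letters only and says nothing of a bound factor.

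Exon length and strand, which the rule did not use, were much the same in both sets. The median summed exon length was 3610 bp in the 115 genes that followed and 3639 bp in the 28 that did not. Of those that followed 51 lie on the plus and 64 on the minus strand, and of the others 13 and 15. The mean level was higher among genes that followed, with a median of 50.9 FPKM against 21.2. This contrast cannot be read as a trait of those genes, because the mean includes the libraries whose difference defines following. The scale of the differences also understates changes of low genes.

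Grouped by role, the genes that followed came from every one of 12 lists, which hold 99 of the 143 genes. The lists are broad. The place of Narf, Rnf157, Afmid, Slc9a3r1, Rnf213, Cant1, Galk1, Dcxr, Trim47 or Rhbdf2 may not match the main role of the gene. In 4 lists, each gene that reached the level of the rule followed: cell cycle and DNA (10 of 10, median difference 1.92), ribosome, translation and protein entry (8 of 8, 1.75), epithelial adhesion, polarity and envelope (5 of 5, 2.79) and lipid metabolism (5 of 5, 1.76). The median over all tested genes is 0 by the centring. The count of each list is to be read beside the 80.4% that followed in the whole region and the 9.44% among all tested genes, and a share near 80.4% is no result about the list. In the secreted list 2 of 5 followed and 3 were lower in 211F 2. Of these 3, Timp2 had a difference of only -0.01, and its sign depended on the scaling.

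**Figure D5:**
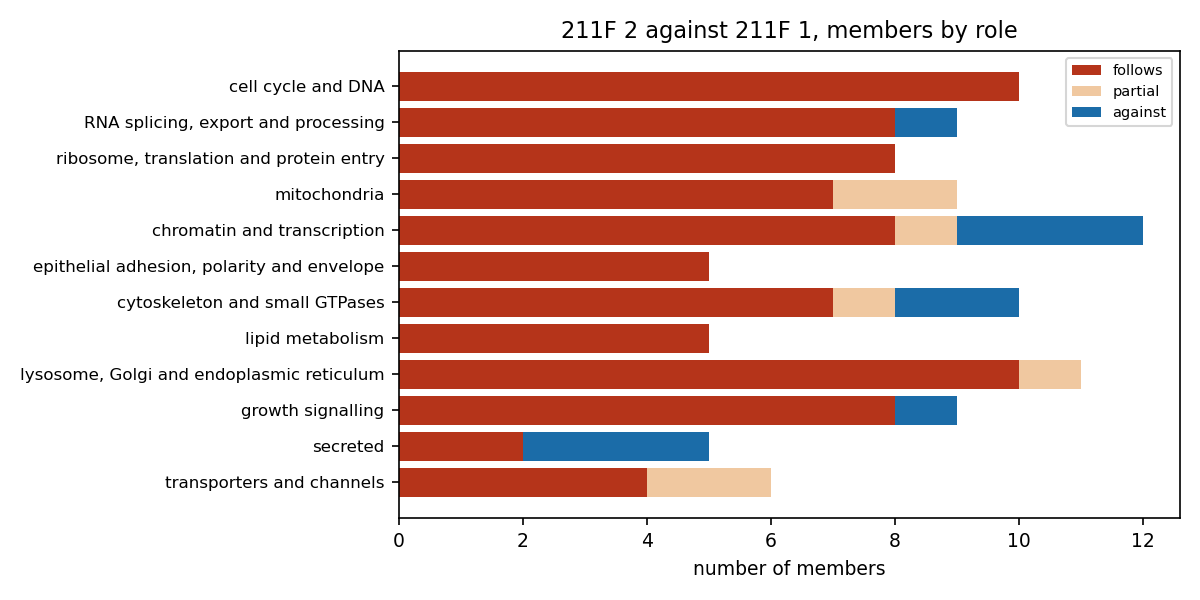
Number of the distal chromosome 11 genes in each of 12 role lists that followed the shared shift (at least 0.90 higher in 211F 2 than in 211F 1), were higher by less (partial) or were lower (against). The secreted list has more genes against than following, but 1 of those against, Timp2, has a difference of only -0.01.

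The 4 highest genes of the cell cycle and DNA list had the same order of libraries. Birc5, the survivin gene of the chromosomal passenger complex, was at 271 (WT 1), 157 (WT 2), 115 (211F 1) and 483 FPKM (211F 2). Jpt1 was at 401, 221, 220.2 and 884 FPKM in this order of libraries, used also below, and Nup85, of the nuclear pore, at 98.4, 61.7, 53.4 and 193 FPKM. Tk1, the thymidine kinase of nucleotide salvage, was at 178, 121, 83.9 and 212 FPKM. In each of them 211F 2 was highest, WT 1 next and 211F 1 lowest, so the genotypes overlapped. The difference of 211F 2 over 211F 1 was 2.01 for Birc5, 1.96 for Jpt1, 1.79 for Nup85 and 1.28 for Tk1. The proliferation sum did not have this order, at 416 FPKM in 211F 2 and 530 in WT 1.

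Of the genes listed under RNA processing 8 of 9 followed (80.4% in the whole region), with a median of 1.57. The terminal gene Narf did not. Eif4a3, the helicase of the exon junction complex, was at 205 (WT 1), 124 (WT 2), 128 (211F 1) and 393 FPKM (211F 2). Alyref, an mRNA export adaptor, was at 156, 111, 106 and 297 FPKM, and Sap30bp at 80.3, 44.4, 48.7 and 141 FPKM. Srsf2, an SR splicing factor, was at 187, 159.8, 188 and 368 FPKM. It followed by 0.92, just over the limit, with 211F 1 as high as WT 1. Srsf2 is 1 of 2 genes in which both 211F libraries lay above both WT libraries.

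In the translation list Rpl38, a protein of the large ribosomal subunit and the highest gene of the proximal stretch, was at 1267 (WT 1), 728 (WT 2), 526 (211F 1) and 1038 FPKM (211F 2). WT 1 was its highest library, and the difference of 211F 2 over 211F 1 was 0.94. Mrpl12, of the mitochondrial ribosome, was at 153, 66.5, 77.9 and 336 FPKM, Srp68, of the signal recognition particle, at 96.8, 62.0, 61.0 and 188 FPKM and Dus1l, a tRNA-modifying enzyme, at 82.8, 44.2, 40.1 and 220.0 FPKM. These 3 middle genes were highest in 211F 2, and their differences were 2.05, 1.56 and 2.38.

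Among genes listed under mitochondria 7 of 9 followed and Afmid and Pycr1 were higher by less. Atp5h, a subunit of the ATP synthase, was at 467 (WT 1), 200.5 (WT 2), 169.8 (211F 1) and 771 FPKM (211F 2). Slc25a10, the dicarboxylate carrier, was at 111, 42.4, 25.6 and 205 FPKM. Pgs1, of cardiolipin synthesis, was at 72.3, 59.4, 45.5 and 180.1 FPKM. These 3 had the order 211F 2, WT 1, WT 2, 211F 1, with differences from 1.92 for Pgs1 to 2.91 for Slc25a10.

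Of the genes listed under chromatin and transcription 8 of 12 followed. In the middle stretch Foxj1 was higher by less and Rnf157 went against, as did Foxk2 and Zfp750 in the terminal stretch. H3f3b, which encodes histone H3.3 and has the highest mean of all 143 genes, was at 1810.0 (WT 1), 1052 (WT 2), 698 (211F 1) and 3688 FPKM (211F 2). Gps1, a subunit of the COP9 signalosome, was at 138, 107, 94.8 and 302 FPKM, and Mafg, a small Maf protein, at 65.9, 39.4, 36.2 and 148 FPKM. The forkhead factor Foxk2 in the terminal stretch was at 109, 51.2, 64.0 and 26.3 FPKM. It was lowest in 211F 2, where H3f3b, Gps1 and Mafg were highest. Their differences of 211F 2 over 211F 1 were 2.36, 1.62 and 1.95, against -1.30 for Foxk2.

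The 5 genes listed under epithelial adhesion, polarity and envelope had the largest median of any list. WT 2, the library nearly without Epcam, was the lowest in 4 of these genes. Itgb4, the integrin subunit of hemidesmosomes, was at 135 (WT 1), 0.558 (WT 2), 76.6 (211F 1) and 356 FPKM (211F 2). Llgl2, a polarity protein, was at 28.8, 2.82, 10.4 and 80.8 FPKM, and Evpl, the envoplakin of the cornified envelope, at 19.5, 0.0708, 5.95 and 51.0 FPKM. For Rhbdf2, an escort of the protease ADAM17, the values were 56.6, 9.80, 5.22 and 85.7 FPKM, and for Trim47, a ubiquitin ligase, 78.9, 14.6, 19.7 and 147 FPKM. In Rhbdf2 the lowest library was 211F 1. The differences of 211F 2 over 211F 1 ran from 2.16 for Itgb4 to 3.76 for Rhbdf2, beside the epithelial sums given above.

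In the cytoskeleton list 7 of 10 followed, Cyth1 was higher by less, and Actg1 and Tbcd went against. Actg1, gamma actin, was at 1390.4 (WT 1), 1063 (WT 2), 1966 (211F 1) and 1416 FPKM (211F 2). Its highest library was 211F 1 and its difference -0.52. Arhgdia, which holds small GTPases inactive, was at 615, 419, 482 and 1432 FPKM, Sept9, a septin, at 324, 129, 133 and 481 FPKM, and Baiap2, an adaptor at actin protrusions, at 86.4, 35.8, 45.6 and 155 FPKM. These followed, by 1.53, 1.80 and 1.70.

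In lipid metabolism, Pcyt2, of phosphatidylethanolamine synthesis, was at 58.6 (WT 1), 38.6 (WT 2), 22.7 (211F 1) and 95.1 FPKM (211F 2). Like Fasn, it had 211F 2 highest and WT 1 next. Dcxr, a carbonyl reductase, was at 88.4, 7.39, 4.55 and 20.1 FPKM. It followed by 1.88, yet WT 1 stood far above 211F 2 (-2.14 for 211F 2 over WT 1).

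Of the genes listed under lysosome, Golgi and endoplasmic reticulum 10 of 11 followed, and Cog1 was higher by less. P4hb, protein disulfide isomerase, was at 432 (WT 1), 421 (WT 2), 366 (211F 1) and 805 FPKM (211F 2). Nploc4, a cofactor of the p97 segregase, was at 94.5, 67.9, 68.8 and 275 FPKM, and Galk1, galactokinase, at 89.7, 57.5, 42.4 and 138 FPKM. Gaa, the lysosomal acid alpha-glucosidase, was at 102, 132, 34.5 and 121 FPKM, and here WT 2 was the highest library. The differences were 1.09, 1.94, 1.63 and 1.74 in that order.

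Of the genes listed under growth signalling 8 of 9 followed (80.4% in the whole region), and Csnk1d in the terminal stretch did not. Sumo2, a protein modifier, was at 585 (WT 1), 331 (WT 2), 330.0 (211F 1) and 1310.0 FPKM (211F 2). Grb2, the adaptor that links receptor tyrosine kinases to Ras, was at 158, 100.4, 94.4 and 259 FPKM and Wbp2 at 104, 82.7, 51.7 and 188 FPKM. Each was highest in 211F 2 and next in WT 1, with differences of 1.94, 1.40 and 1.80.

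Secreted proteins were the least uniform. Notum, which inactivates Wnt ligands by removing their lipid, was at 24.5 (WT 1), 1.10 (WT 2), 1.99 (211F 1) and 78.6 FPKM (211F 2), a difference of 4.69. C1qtnf1 was at 25.6, 37.1, 4.86 and 27.8 FPKM, with 211F 1 alone low. Timp2, an inhibitor of matrix metalloproteases, was at 212, 477, 366 and 373 FPKM. WT 2 was its highest library, and its difference of -0.01 turned positive with a pseudocount of 5 or with quantile normalization. Lgals3bp, a galectin-binding glycoprotein, was at 20.8, 115, 85.9 and 11.7 FPKM. It was high in WT 2 and 211F 1 and low in WT 1 and 211F 2, with a difference of -2.82.

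Of the genes listed under transporters and channels 4 of 6 followed and 2, Slc9a3r1 and Ttyh2, were higher by less. Slc38a10, a member of an amino acid transporter family, was at 203 (WT 1), 103 (WT 2), 94.1 (211F 1) and 338 FPKM (211F 2), and Slc39a11, of the zinc transporter family, at 50.5, 34.6, 38.1 and 82.3 FPKM. Tmc6 was at 36.9, 16.3, 11.8 and 61.9 FPKM. Slc9a3r1, a scaffold of apical membranes in the proximal stretch, was at 223, 38.0, 80.5 and 145 FPKM and was highest in WT 1. The first 3 were highest in 211F 2.

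The 4 largest differences along the shared shift were of transcripts at no more than 2.65 FPKM in WT 2 and 211F 1. After Notum came Hid1, a protein of secretory granule formation, at 63.5 (WT 1), 1.20 (WT 2), 2.65 (211F 1) and 75.5 FPKM (211F 2), a difference of 4.35. Notumos, the transcript antisense to Notum, was at 5.36, 0.313, 0.405 and 22.9 FPKM (4.04); exons of the pair overlap on opposite strands, and without knowing whether strand was used their reads cannot be told apart. BC006965, a noncoding transcript beside Sox9 that was named after its values were seen, had the largest difference of all, 4.99, at 82.0, 0.487, 2.64 and 119 FPKM. Sox9 itself was at 100.1, 4.24, 36.8 and 96.9 FPKM, with 1.33. In Hid1 and BC006965 both WT 1 and 211F 2 were high and the other libraries near 0, and Epcam was highest in the same libraries. Mif4gd (3.24), Tbc1d16 (3.01), Rfng (2.96), a modifier of Notch receptors, and Unc13d (2.90), a vesicle priming protein, came next among the middle genes together with genes given above. Unc13d was at 8.87, 1.07, 5.45 and 48.7 FPKM; its difference of 211F 2 over WT 1, 2.28, was the largest of the middle stretch.

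In the middle stretch 12 genes did not follow, and they lie among neighbours that did. Mxra7 was at 0.869 (WT 1), 41.3 (WT 2), 13.2 (211F 1) and 0.0944 FPKM (211F 2), the largest difference against the shift at -3.75. It was high only in WT 2 and 211F 1, the libraries with mesenchymal sums of 4261 and 4438 FPKM, as was Lgals3bp; the part of cell state in this was not tested. Hmga1b was at 71.3, 55.7, 102 and 47.9 FPKM (-1.13); it is nearly identical in sequence to Hmga1 on another chromosome, so its reads are uncertain. Rnf157 was at 9.47, 9.93, 4.92 and 3.17 FPKM and Bahcc1 at 12.4, 14.9, 8.66 and 4.06 FPKM, both lowest in 211F 2. Actg1 and Timp2 complete the 7 that were lower in 211F 2 relative to the median of all tested genes. For Timp2 this was by -0.01 only, at 366 FPKM in 211F 1 and 373 FPKM in 211F 2. The 5 that were higher by less than 0.90 were Foxj1, Afmid, Cyth1, Pycr1 and Cbr2. Cbr2, a carbonyl reductase, was at 678, 12.9, 19.3 and 30.0 FPKM and was high in WT 1 alone.

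In the terminal stretch the genes with the largest drop against 211F 1 were Metrnl, a secreted factor, at 16.3 (WT 1), 17.4 (WT 2), 21.6 (211F 1) and 3.12 FPKM (211F 2) (-2.50), and Wdr45b, an autophagy protein, at 122, 65.9, 59.4 and 19.2 FPKM (-1.62). Tbcd, a tubulin folding cofactor, was at 91.3, 49.6, 56.7 and 22.1 FPKM (-1.36). Cybc1, a chaperone of the phagocyte oxidase, was at 85.4, 38.5, 35.8 and 17.0 FPKM (-1.08), and Zfp750, an epidermal differentiation factor, at 13.4, 0.0311, 4.88 and 1.94 FPKM (-1.04). Apart from Zfp750 in WT 2, 211F 2 was the lowest library in each. Narf was at 50.9, 11.8, 9.34 and 6.22 FPKM, and Ogfod3, Hexdc and Fn3krp were at 3.09, 3.28 and 2.84 FPKM in 211F 2 against 18.0, 14.2 and 11.6 in WT 1. Metrnl differed from the others in that WT 1 was not raised over 211F 1.

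The study's own comparison, 211F against WT, showed no distal gene that passed the test. The limma test gave 0 calls at an adjusted p under 0.05 among the 143 genes, as among all tested genes (0%). At an unadjusted p under 0.05 there was 1 of the 143, Rnf157 (-1.11 ± 0.36, SE), or 0.699%, against 1.89% of all tested genes. The median of 211F minus WT was 0.26 over the 143 genes, with 105 positive and 38 negative, against 0.03 over all tested genes; these differences between group means are not centred. It was 0.09 in the proximal, 0.31 in the middle and -1.11 in the terminal stretch. Both 211F libraries lay above both WT libraries in 2 genes, Srsf2 and Actg1 (1.40%, against 15.2% of all tested genes). They lay below in 8 genes (5.59%, against 11.6%), 6 of which are terminal: Ogfod3, Hexdc, Cybc1, Narf, Wdr45b and Fn3krp. The other two were Rnf157 and Bahcc1.

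The median of 211F minus WT rested on single libraries. Without 211F 2 it was -0.62, without 211F 1 1.22, without WT 1 0.62 and without WT 2 -0.14. The largest positive differences were of Itgb4 (3.52 ± 2.41, SE), Evpl (2.02 ± 1.84), Unc13d (1.98 ± 1.34), Llgl2 (1.52 ± 1.47) and Sox9 (1.40 ± 1.60), each with a limma adjusted p = 0.9999. The largest negative ones were of Cbr2 (-1.96 ± 2.00), Narf (-1.58 ± 0.78), Wdr45b (-1.37 ± 0.67), Dcxr (-1.34 ± 1.40) and C1qtnf1 (-1.29 ± 0.86), with the same adjusted p. With 2 libraries a group, the smallest p that an exact two-sided permutation test allows is 0.333.

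Exons of 57 of the 143 genes overlap another gene, among them Tk1, Srsf2, Mrpl12, Slc25a10, Itgb4, Actg1, Csnk1d, Notum, Tbcd and Cybc1, and their reads may be shared. H3f3b, Rpl38, Sumo2 and Actg1 have close paralogs or processed copies elsewhere in the genome, so their levels are uncertain as well. Without the overlapping genes 68 of 86 followed (79.1%).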

How the data were processed

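The authors deposited FPKM values as 1 table of 50679 Ensembl gene identifiers by 4 libraries, and all of its value columns were used. The submitters' processing notes name TopHat2 2.0.13, DESeq2 and GRCm38 without saying what each was used for. Which program gave the FPKM values, with which annotation, whether strand was used and whether libraries were rescaled is not given in the sources used; the library kit is strand-specific, per the labels' protocols. Since FPKM is relative to the library total, a rise of very abundant genes lowers the rest. Counts were not used, and depth was read from the steps between low values: 82.7% to 91.2% of them lay within 0.1 fragment of whole steps, which would put WT 2 at 1.72 times the depth of WT 1, 211F 1 at 1.09 and 211F 2 at 0.939 if nothing was rescaled.

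Positions are from GENCODE M21 on GRCm38, and 310 identifiers had no entry there. Values were analysed as log2(FPKM + 1) in Python 3.11.15 with pandas 2.3.3. Genes whose mean reached 1 FPKM (12767) were tested with limma 3.58.1 in R 4.3.3 (two-sided, intensity trend, Benjamini-Hochberg at 0.05 over all of them), without a replicate block; the test was checked on simulated data. Promoter windows are from RefSeq, GRCm38.p6. The region, the role lists, the marker lists and the rule for named genes were chosen with earlier results of these data known, and the stretches and their alternatives after seeing the data. Named genes are Pcna and Epcam, the 10 furthest along and the 10 furthest against the shared shift, the 5 largest 211F minus WT differences each way and the up to 4 highest of each role list; other names were picked with their values in view. A few genes that this rule takes are left out of the text. The alternatives were other pseudocounts, normalizations, level filters and position limits, other thresholds, a replicate block, and leaving out each library.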

Additional observations from a re-analysis of the deposited data

How the results depend on the processing

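The shared shift is the largest median of any pair, taken in its positive order, so its sign could not change under the 12 alternatives. Its size with every library kept was 1.57 (pseudocount 5) to 1.84 (start at least 5 Mb further along). Leaving out each library in turn gave 1.08 (without 211F 2, where the pair is WT 1 over 211F 1) to 1.80. Without WT 1 or WT 2, or with median centring, it stayed at 1.80, because these steps cannot alter a centred difference between the 211F libraries. The count of 115 genes that followed became 68 of 86 without overlapping exons, which has fewer genes. With the whole median difference required it was 72, a count fixed in advance because the limit is then the median of the 143 values. With change points on WT 1 over 211F 1 the middle stretch held 5 genes, the fewest allowed, in place of 120. The cause was not tested. The median of 211F minus WT over the distal genes was -0.62 to 1.22 when a library was left out and turned negative without WT 2 or 211F 2. limma called 0 genes in 12 alternatives, the replicate block included. Genes at an unadjusted p under 0.05 numbered 241, then 142 with the replicate block, 745 without a filter (more genes tested) and 836 without WT 1. Without 211F 1 there were 221 of 12767 genes, among them 25 of the 143 distal genes. Nothing in the labels pairs libraries by replicate number, and across genes same-numbered libraries deviated in opposite ways (r = -0.47). Where an alternative leaves 1 library of a genotype, limma takes its spread from the other genotype. No depth in reads is known, and values near 0.09 FPKM, as of Mxra7 in 211F 2, rest on a few fragments.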
